A study of Mus musculus with 3 samples.

Results

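The genes of the TNF superfamily ligands, their receptors and the TRAF adaptors were examined in T cells of the mouse spleen. Members were all genes whose symbol starts with Tnfsf, Tnfrsf or Traf and a digit, together with Cd27, Cd40, Cd40lg, Cd70, Ltbr and Tradd, provided that the annotation lists a protein-coding transcript. This rule took 47 of the 55536 genes in the table. They comprised 13 ligands, 23 receptors, 8 genes for the TRAF proteins and TRADD, and 3 genes for TRAF3-interacting proteins, which the symbols brought in. A further 1 gene matched by symbol, had no protein-coding transcript and was left out.

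Ligands of this superfamily are mostly membrane proteins that assemble as trimers and cluster their receptors on a neighbouring cell. Receptors without a death domain bind TRAF adaptors directly and lead to NF-kappaB and MAP kinase signalling, while receptors with a death domain can also recruit caspases. In T cells, members such as CD27, OX40, 4-1BB and GITR are known as costimulatory receptors, and CD40 ligand is the signal that helper T cells give to B cells and dendritic cells.

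The cells came from B6CASTF1/J mice, the first generation from C57BL/6 females and CAST/EiJ males, labelled female and 66 days old. All 3 libraries belong to 1 group, splenic T cells with no treatment in the labels, and each was prepared from 300 ng of total RNA with synthetic spike-ins. Because the labels name 3 biosamples and a single donor record, SDs and p-values describe how much these samples differ, and that may be technical. Libraries 1, 2 and 3 (the replicate numbers of the labels) held 16.88, 14.99 and 16.20 M estimated counts in genes.

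Levels are given as TPM, an abundance which corrects for length and depth, so that values can be set side by side between genes. A transcript with an effective length of 1 kb and a level of 1 TPM corresponded to 17.03, 15.41 and 17.03 reads in the 3 libraries. All 13 listed T-cell markers were above 10 TPM in every library, and their summed level was 3476, 3428 and 3205 TPM. Genes of other cells were present at low levels. The 12 B-cell markers summed to 19.1, 28.4 and 14.3 TPM, the 12 monocyte and macrophage markers to 44.6, 34.8 and 39.0 TPM, the 7 natural killer markers to 27.6, 21.3 and 22.8 TPM, the 7 dendritic-cell markers to 5.72, 5.11 and 3.24 TPM and the 5 plasma-cell markers to 4.66, 4.80 and 3.19 TPM. Of 10 stromal and endothelial markers only Pecam1, which leukocytes also carry, reached 1 TPM in all libraries, and 4 had no counts.

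Of the 47 members, 31 (66.0%) reached 1 TPM in all 3 libraries, against 44.7% of the 22028 protein-coding genes. The median level of the members was 6.06 TPM, against 0.487 TPM for protein-coding genes. The detected share differed between roles. It was 5 of 13 ligands (38.5%), 15 of 23 receptors (65.2%), all 8 genes of the TRAF and TRADD group and all 3 TRAF3-interacting genes. The median was 0.493 TPM for ligands, 6.06 TPM for receptors and 16.9 TPM for the TRAF and TRADD group. No counts at all were assigned to Cd70, Tnfrsf11b or Tnfrsf17. In bulk RNA of this kind, fewer cells that use a gene and less RNA per cell cannot be told apart.

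**Figure D1:**
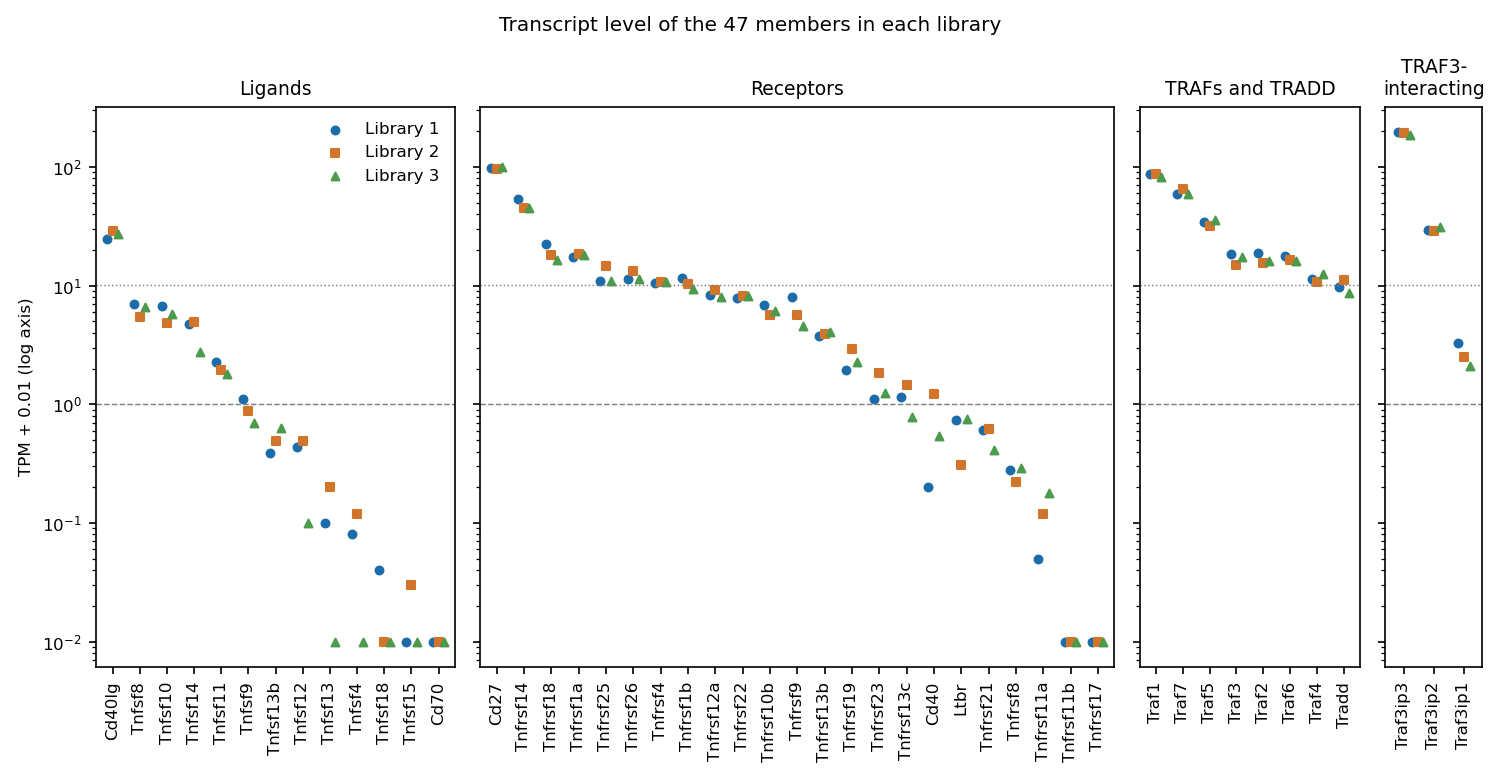
Level of each of the 47 members in the 3 libraries, as TPM + 0.01 on a log axis, ordered within each role by the mean. Points are single libraries, the dashed line marks 1 TPM and the dotted line 10 TPM; 1 ligand, Cd40lg, lies above the dotted line, as do 7 receptors and 7 genes of the TRAF and TRADD group in every library.

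Among the 13 ligands that the symbol rule took, the transcript of CD40 ligand stood alone at the top. Cd40lg had 24.9, 28.7 and 27.3 TPM in libraries 1, 2 and 3. None of the other 12 exceeded 6.97 TPM in any library, so that the Cd40lg values did not overlap with any of them. The rule does not take Ltb, a ligand gene with a higher level that is given below. Tnfsf8 (CD30 ligand) had 6.97, 5.41 and 6.64 TPM, and Tnfsf10 (TRAIL, a ligand of death receptors) had 6.69, 4.84 and 5.75 TPM. The ranges of these 2 ligands overlapped, and both were lowest in library 2. Tnfsf14 (LIGHT), at 4.74, 4.90 and 2.76 TPM, was low in library 3. Tnfsf11 (RANKL, the osteoclast differentiation factor) had 2.25, 1.94 and 1.79 TPM and was the last ligand above 1 TPM in all libraries.

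The other 8 ligands were under 1 TPM in at least 1 library, among them several that are best known from antigen-presenting and myeloid cells. Tnfsf9 (4-1BB ligand) had 1.09, 0.870 and 0.690 TPM, and Tnfsf13b (BAFF, a survival factor of B cells) had 0.380, 0.480 and 0.620 TPM. The levels of Tnfsf12 (TWEAK), at 0.430, 0.480 and 0.0900 TPM, rested on at most 9.88 estimated counts per library. Its posterior SD, a measure of reads that could belong elsewhere, was 21.4% of the count. Tnfsf13 (APRIL), Tnfsf4 (OX40 ligand), Tnfsf18 (GITR ligand) and Tnfsf15 (TL1A) had at most 3.84 counts in any library. In libraries 1, 2 and 3 this gave 0.090, 0.19 and 0 TPM for Tnfsf13 and 0.070, 0.11 and 0 TPM for Tnfsf4. Tnfsf18 had 0.030 TPM in library 1 and Tnfsf15 had 0.020 TPM in library 2, and both were at 0 elsewhere. Cd70, the ligand of CD27, had 0 counts, and its true level could be as high as 3 counts in a library.

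The costimulatory receptors were led by Cd27, the receptor that sustains T-cell survival after priming. Cd27 (chr6:125232622-125237010, minus strand, mm10) had 98.4, 96.3 and 99.7 TPM, more than all but 1 other member in every library. Vamp1, a gene on the opposite strand that overlaps it, had 38.9 ± 3.19 TPM, and the use of strand in counting is not stated. In all, 18 members overlap a gene on the opposite strand, and that gene reached 1 TPM for 8 of them. Tnfrsf14 (HVEM, the receptor of LIGHT and BTLA) followed with 53.7, 44.9 and 45.1 TPM. Tnfrsf18 (GITR) had 22.5, 17.9 and 16.5 TPM, and the ranges of these 3 receptors were apart from each other.

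Tnfrsf4 (OX40) had 10.5, 10.8 and 10.6 TPM, from 136, 134 and 140 counts. Its SD was 1.32% of the mean, the smallest of the costimulatory receptors, against 1.74% for Cd27. Counting error at so few counts is larger than this SD, which therefore does not show that Tnfrsf4 was steady. In the second quantification, described below, Tnfrsf4 had 17.2 ± 1.27 TPM and Tnfrsf14 78.7 ± 4.08 TPM (SD, n = 3). Tnfrsf4 was thus not the steadiest there. Tnfrsf1b (TNF receptor 2) had 11.6, 10.2 and 9.37 TPM, a range that overlapped with that of Tnfrsf4. The values of Tnfrsf9 (4-1BB, also called CD137, an activation-induced receptor) were 7.92, 5.68 and 4.57 TPM, with 12.6 ± 0.720 TPM for Camta1, which overlaps it on the opposite strand. Tnfrsf18, Tnfrsf1b and Tnfrsf9 were each highest in library 1 and lowest in library 3. The 8 listed genes of regulatory T cells, a subset known for high GITR, summed to 101, 90.6 and 85.0 TPM, but only Ctla4 among them, with 25.7, 23.0 and 21.7 TPM, had this order by itself. Most of the gap in the sum came from Ikzf2, with 24.3, 14.3 and 15.0 TPM, whereas Foxp3 had 8.55, 9.04 and 8.44 TPM. The part of these cells in the receptor values was not tested. Cd40 and Tnfrsf8 (CD30) stayed low, with 0.190, 1.22 and 0.530 TPM for Cd40 and 0.270, 0.210 and 0.280 TPM for Tnfrsf8.

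Receptors with a death domain were present at moderate levels. Tnfrsf1a (TNF receptor 1) had 17.5, 18.6 and 18.0 TPM, and Tnfrsf25 (DR3) had 11.0, 14.5 and 10.9 TPM. The values of Tnfrsf10b, which encodes the TRAIL receptor of the mouse, were 6.88, 5.66 and 6.13 TPM. These 3 receptors did not overlap in the first quantification, whereas Tnfrsf21 (DR6) was under 1 TPM at 0.537 ± 0.118 TPM (SD, n = 3). In the second quantification, Tnfrsf25, with 13.5, 14.1 and 11.7 TPM, did overlap with Tnfrsf10b, with 11.9, 8.37 and 11.5 TPM.

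The 3 decoy-type receptors of the mouse are neighbours on chromosome 7. Tnfrsf26 had 11.4, 13.2 and 11.3 TPM, Tnfrsf22 averaged 8.07 ± 0.176 TPM and Tnfrsf23 averaged 1.39 ± 0.389 TPM. Both Tnfrsf22 and Tnfrsf23 encode receptors that bind TRAIL and carry no death domain. Reads of Tnfrsf23 were less firmly placed, with a posterior SD of 5.38% of the count against 0.621% for Tnfrsf22, and 5.99% of its TPM lay in protein-coding entries.

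The receptors of B-cell survival were low. Tnfrsf13b (TACI) had 3.75, 3.93 and 4.03 TPM. Tnfrsf13c (BAFF receptor) had 1.15, 1.43 and 0.770 TPM, and Tnfrsf17 (BCMA, a plasma-cell receptor) had no counts. By these values Tnfrsf13c, from 27, 29 and 20 counts, and the summed B-cell markers were highest in library 2 and lowest in library 3. So was the B-cell gene Cd79a, with 1.99, 3.78 and 1.69 TPM. The second quantification deposited with the samples, described below, did not keep this order for Tnfrsf13c. It gave 2.23, 1.73 and 1.80 TPM, with library 1 highest and library 2 lowest. The part of B cells in the Tnfrsf13c level was not tested.

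Of the 5 remaining receptors, Tnfrsf12a (Fn14, the TWEAK receptor) had 8.34, 9.23 and 8.01 TPM and Tnfrsf19 (TROY) had 2.38 ± 0.50 TPM (SD, n = 3). Ltbr, which organises lymphoid tissue and is known from stromal and myeloid cells, had 0.730, 0.300 and 0.740 TPM. Tnfrsf11a (RANK) had 0.040, 0.11 and 0.17 TPM from 3, 8 and 10 counts, and Tnfrsf11b (osteoprotegerin) had none.

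All 7 TRAF genes and Tradd were detected. Traf1, an adaptor without a RING finger that NF-kappaB induces, was the highest of them, at 87.1, 86.8 and 81.8 TPM. Traf7, which lacks the TRAF domain shared by the others, had 59.0, 64.9 and 59.2 TPM. Traf5, an adaptor of CD27, OX40 and other receptors, had 34.4, 31.7 and 35.4 TPM. These 3 genes were apart from each other and from the rest.

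Below them, Traf3, Traf2 and Traf6 overlapped. Traf3, a brake on the non-canonical NF-kappaB pathway, had 18.5, 15.0 and 17.5 TPM. Traf2, which brings the cIAP ubiquitin ligases to the receptor, had 18.9, 15.5 and 16.0 TPM. Traf6, shared with the interleukin-1 and Toll-like receptor pathway, had 17.7, 16.5 and 16.0 TPM. No order of these 3 genes held across the libraries in the first quantification. In the second, described below, Traf3 was highest in every library, with 29.8, 24.5 and 28.2 TPM. Traf6 followed with 23.3, 19.9 and 20.1 TPM, and Traf2 was lowest with 22.6, 17.0 and 17.9 TPM. Traf4 lay below these 3 at 11.2, 10.8 and 12.4 TPM, and Tradd, the death-domain adaptor of TNF receptor 1, had 9.78, 11.0 and 8.69 TPM.

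The highest level of all members belonged to Traf3ip3, a gene that the symbol rule took in and that encodes a TRAF3-binding membrane protein of lymphocytes. Traf3ip3 had 195, 193 and 184 TPM. Its mean was above that of 99.0% of protein-coding genes. Traf3ip2 (Act1, the adaptor of the interleukin-17 receptor) had 29.5, 29.0 and 31.1 TPM, and Traf3ip1, a protein of cilia, averaged 2.61 ± 0.596 TPM. Down the ranking of all 47 members by the first quantification, the ranges of neighbours were apart through the first 9 positions, ending with Cd40lg above Tnfrsf18. Below that they were apart for 4 neighbouring pairs only, Traf6 and Tnfrsf25, Tnfrsf22 and Tnfsf8, Tnfrsf13b and Traf3ip1, and Tnfrsf8 and Tnfrsf11a. The order at the top differed in the second quantification, described next. There Tnfrsf14, with 81.8, 74.1 and 80.2 TPM, was above Traf7, with 71.4, 69.05 and 68.9 TPM. Cd40lg, with 37.7, 37.2 and 37.8 TPM, was above Traf3ip2, with 25.3, 28.6 and 27.3 TPM. The ranges of Cd27 and Traf1 overlapped there.

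The second quantification deposited with the samples gave higher values in general, by a median of 1.34 times for members at 1 TPM or more and 1.31 times for protein-coding genes at that level. For 13 members it was over 1.5 times the first. These were Tnfrsf14 at 78.7 TPM, Traf3 at 27.5 TPM, Tnfrsf4 at 17.2 TPM, Tnfrsf12a at 13.4 TPM, Tnfrsf10b at 10.6 TPM and Tnfrsf9 at 10.5 TPM, with 7 low members. Among the low ones, Cd40 had a mean of 2.34 TPM in place of 0.647 TPM and Tnfrsf11a 1.05 TPM in place of 0.107 TPM. Tnfrsf23 had 3.51 TPM, Tnfrsf13c 1.92 TPM, Ltbr 1.03 TPM, Tnfsf13b 1.04 TPM and Tnfsf15 0.111 TPM. The levels of Cd40 and Tnfrsf11a depended on the quantification more than on the library.

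Superfamily genes with other symbols, which the rule does not take, include both ligands and receptors. Of 10 such genes, 6 were detected. The ligand gene Ltb (lymphotoxin beta) had 217, 208.5 and 199 TPM. Among the receptor genes, Relt reached 16.0 ± 4.39 TPM and Fas 12.0 ± 0.635 TPM, and Eda2r and Edar were at or near 0. Of 33 listed genes that act below the receptors, all 33 were detected and 29 had at least 10 TPM in every library. Tnfaip3 (A20, a deubiquitinase that limits NF-kappaB) at 379 ± 50.3 TPM, Ikbkb at 104 ± 8.39 TPM and Rbck1 (HOIL-1) at 86.3 ± 3.89 TPM were the highest. The lowest were Tab3 at 5.97 ± 0.757 TPM and Fadd, the adaptor between death receptors and caspase-8, at 2.19 ± 0.453 TPM (SD, n = 3).

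Receptors and their ligands were compared within each library, to see which partner of a known pair had the higher transcript level. The receptor was higher in all 3 libraries in 12 of 16 pairs, and the ligand was higher in all 3 libraries in 4 pairs. Differences are receptor minus ligand of log2(TPM + 1), which understates the distance where a partner is low. With 3 libraries the exact two-sided sign-flip permutation test cannot give less than p = 0.25, and every pair had p = 0.25, also after Benjamini-Hochberg adjustment over the 16 pairs. The order of the partners is therefore described here and did not pass a test.

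The largest gap in favour of a receptor was that between Cd27 and Cd70, at 6.63 ± 0.02 log2 units (SD, n = 3). Against the level that 3 counts of Cd70 would give, Cd27 was at least 367-fold higher in each library. Tnfrsf18 was above Tnfsf18 by 4.29 ± 0.20, Tnfrsf25 above Tnfsf15 by 3.69 ± 0.20 and Tnfrsf4 above Tnfsf4 by 3.46 ± 0.07 log2 units. These 4 ligands are known mainly from activated antigen-presenting cells, endothelium or activated lymphocytes. Tnfrsf14 and Tnfsf14 were both detected, with Tnfrsf14 higher by 3.28 ± 0.33 log2 units.

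Smaller gaps separated the TNF receptors from TNF itself. Tnfrsf1a was 1.35 ± 0.15 log2 units and Tnfrsf1b 0.61 ± 0.18 log2 units above Tnf, which had 6.37, 7.42 and 5.65 TPM. Tnfrsf9 was above Tnfsf9 by 1.88 ± 0.19, Tnfrsf12a above Tnfsf12 by 2.85 ± 0.18 and Tnfrsf13b above Tnfsf13 by 2.17 ± 0.15 log2 units. Tnfrsf13c exceeded Tnfsf13b by 0.49 ± 0.32 log2 units, both at low levels. Tnfrsf10b and Tnfsf10 (TRAIL) were nearly level, at 0.10 ± 0.08 log2 units, and over protein-coding transcripts alone the sign turned to -0.67.

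The 4 pairs in which the ligand was higher were Cd40 with Cd40lg, Tnfrsf8 with Tnfsf8, Tnfrsf11a with Tnfsf11, and Ltbr with Ltb. Their differences were -4.13 ± 0.36, -2.54 ± 0.13, -1.43 ± 0.20 and -7.05 ± 0.25 log2 units in that order (SD, n = 3). The receptors of these pairs are known from B cells, dendritic cells, osteoclast precursors and stroma, or in the case of CD30 from activated lymphocytes. Cd40lg was between 23.5-fold and 131-fold higher than Cd40, and between 12.8-fold and 21.4-fold in the second quantification. Cd40 itself rested on 7, 11 and 6 counts.

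**Figure D2:**
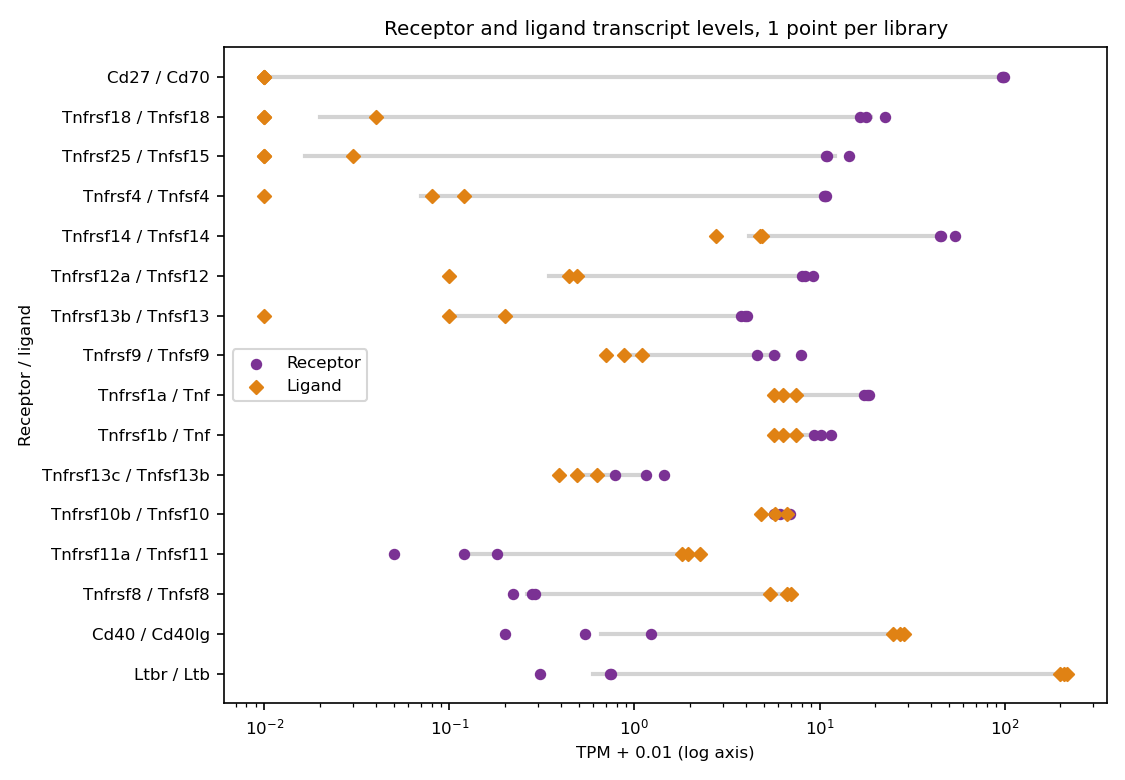
TPM + 0.01 on a log axis for the 16 receptor and ligand pairs, 1 point per library, with a grey line between the 2 means and the pairs ordered by the log2 difference. Receptors lie to the right of their ligands in 12 pairs, with points of Tnfrsf10b and Tnfsf10 intermingled, and to the left in the 4 lowest pairs.

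Variation between the libraries was tested in a fit over the whole table, which asks whether the spread of a gene exceeds that of genes of similar abundance. None of the 35 members tested was called, against 0.565% of the 13280 genes tested (75 genes, edgeR quasi-likelihood F test, Benjamini-Hochberg adjusted over all genes). The other 12 members, all low, did not enter the test. At an unadjusted p under 0.05 stood 1 member (2.86% of those tested), against 755 of the 13280 genes (5.69%). DESeq2 marked 0 of 44 members as dispersion outliers, against 158 of 22813 genes. That member was Tnfsf14, which had 141, 132 and 82 counts. It was low in library 3, and its adjusted p was 0.797 in edgeR. None of the 33 signalling genes and none of the 6 tested superfamily genes with other symbols was called. Genes of cell state did vary, with 2 of 12 proliferation genes and 3 of 11 immediate-early genes called. Mki67 had 6.27, 4.57 and 2.74 TPM and Top2a had 11.7, 7.5 and 5.28 TPM in libraries 1, 2 and 3, the same order as Tnfrsf9. Fos, with 80.2, 101 and 122 TPM, and Fosb, with 31.1, 38.6 and 43.7 TPM, had the opposite order, and Egr1, with 17.7, 26.2 and 21.6 TPM, was highest in library 2. Of the other listed proliferation genes, Pcna, Mcm2, Rrm2 and Birc5 had other orders, and the rest had that of Mki67. The other listed immediate-early genes, Jun and Junb among them, were highest in library 2, like Egr1. All of these genes were named after their values were seen, and their part in the member levels was not tested.

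Many members had a large share of their TPM in transcript entries that do not encode protein, such as retained introns. The same share over all genes was not computed, so a trait of this family is not shown. This was examined in the 25 members with a mean of at least 5 TPM, in both transcript quantifications deposited with the samples. The median share of protein-coding entries, from the means of the members, was 70.0% in the first quantification and 76.1% in the second. Within libraries 1, 2 and 3 of the first it was 74.4%, 71.0% and 80.2%. Traf7 had the lowest share, at 34.8 ± 5.83% (SD, n = 3). Counting protein-coding entries alone, Traf3ip3 averaged 111 TPM, Cd27 67.0 TPM, Tnfrsf14 47.9 TPM, Traf1 41.6 TPM, Cd40lg 27.0 TPM and Traf7 21.1 TPM. On that count Tnfrsf14 was above Traf1, and Cd40lg above Traf7.

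**Figure D3:**
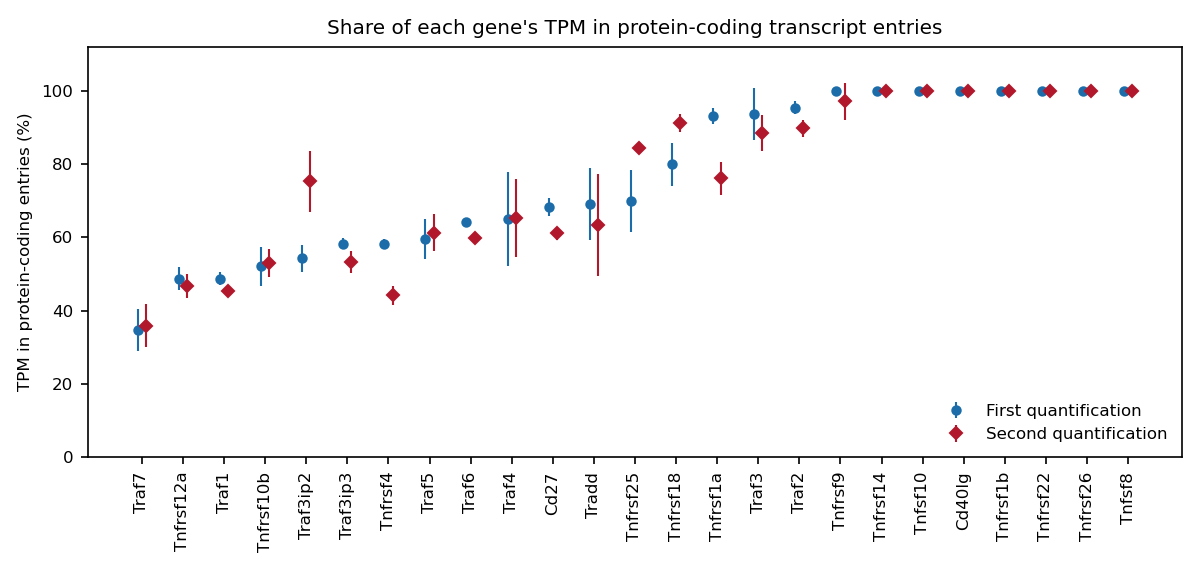
Percentage of each gene's TPM in protein-coding transcript entries for the 25 members with a mean of at least 5 TPM. Points are means and bars SDs over the 3 libraries, for the first and the second quantification; Traf7 is lowest at 34.8% in the first.

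The leading transcript entry was the same in both quantifications for 21 of the 25 members. It was a retained intron in Tnfrsf12a (Tnfrsf12a-205, 41.6% of the TPM of the gene) and in Traf7 (Traf7-214, 13.0%). Both leads were narrow in the first quantification. There the protein-coding Tnfrsf12a-201 averaged 41.1% and was ahead in library 1. The retained intron Traf7-218 averaged 12.8% and was ahead of Traf7-214 in libraries 1 and 3. In library 1 the protein-coding Traf7-202 was the highest entry of Traf7, at 14.9%. Traf3 was led by Traf3-201 in the first quantification, at 47.7%, and by Traf3-204 in the second, at 47.7%. Traf1 spread over 9 entries, with Traf1-201 leading at 16.6% in the first and Traf1-205 at 19.7% in the second. Tnfrsf25 was led by Tnfrsf25-202 at 58.9% in the first and by Tnfrsf25-201 at 47.0% in the second, and Tnfrsf9 by Tnfrsf9-206 at 40.2% and Tnfrsf9-208 at 26.9%. For these 4 genes the main isoform was not settled by the deposited values.

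Alternative coding stretches were then followed in 5 members, chosen after the values of their isoforms were seen. Sequences were read from the GENCODE M21 transcripts (mm10), 5′ to 3′, and the libraries hold RNA of both parental strains, of which only the reference is shown. In Traf2, a splice site at the end of exon 2 adds 21 bases, or 7 residues, to the RING finger, a known variant of the protein. The stretch is shown because both forms were used at similar levels; the capitals mark the added bases at chr2:25538845-25538865 on the minus strand.
Traf2: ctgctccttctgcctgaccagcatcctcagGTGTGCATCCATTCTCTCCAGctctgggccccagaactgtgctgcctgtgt

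Entries with the added bases held 53.2%, 57.6% and 53.1% of the Traf2 TPM that could be assigned to either form in libraries 1, 2 and 3. The second quantification gave 54.8%, 50.6% and 47.0%. The long form Traf2-202 thus averaged 9.17 TPM and the short form Traf2-201 averaged 6.86 TPM, with no overlap between the libraries in the first quantification. The sum of Traf2-201 and the retained intron Traf2-203, at 8.85, 6.56 and 7.52 TPM, did overlap with the long form, at 10.06, 8.92 and 8.52 TPM. Against that sum, the second quantification put the long form below in library 3, at 8.40 against 9.48 TPM. Traf2-202 and Traf2-201 by themselves averaged 50.8% and 39.1% of the TPM of the gene in the second.

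In Traf3, the exon followed lies in the middle of the coding region, and the corresponding exon of the human gene is known to be skipped in activated T cells. It is exon 8 of Traf3-201 and has 75 bases, or 25 residues, at chr12:111251130-111251204 on the plus strand, marked by capitals.
Traf3: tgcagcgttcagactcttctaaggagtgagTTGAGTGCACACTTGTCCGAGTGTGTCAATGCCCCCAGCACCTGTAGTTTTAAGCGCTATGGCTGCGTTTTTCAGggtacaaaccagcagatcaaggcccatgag

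Of the Traf3 TPM that could be assigned, entries with the exon made up 86.2%, 95.3% and 65.3% in libraries 1, 2 and 3. The second quantification gave 77.4%, 68.5% and 79.4%. These entries include the retained intron Traf3-205, with 0.58, 0.20 and 2.52 TPM in the first. Traf3-204, with 34.3% of the TPM of the gene in the first and 47.7% in the second, could not be assigned. Among assigned entries, inclusion was the more frequent form in every library by both. In the first, Traf3-201 alone had 9.31, 9.55 and 5.14 TPM, against 1.58, 0.48 and 4.08 TPM for the skipped entries. The order of the libraries differed between the quantifications, with library 3 lowest in the first and highest in the second.

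Tnfrsf9 has an exon that encodes the membrane-spanning part of 4-1BB, and skipping it is known to yield a soluble receptor in the mouse. The exon has 135 bases, or 45 residues, at chr4:150935422-150935556 on the plus strand and is in capitals below.
Tnfrsf9: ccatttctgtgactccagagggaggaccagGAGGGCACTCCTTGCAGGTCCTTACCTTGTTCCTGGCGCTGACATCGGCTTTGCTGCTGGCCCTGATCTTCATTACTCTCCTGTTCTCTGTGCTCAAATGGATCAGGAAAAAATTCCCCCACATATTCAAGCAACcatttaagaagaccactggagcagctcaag

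Entries with this exon held 79.2%, 89.1% and 65.6% of the Tnfrsf9 TPM that could be assigned, against 78.7%, 78.5% and 49.0% in the second quantification. Library 3 was lowest in both. In the second, Tnfrsf9-207, Tnfrsf9-208 and Tnfrsf9-209 could not be assigned, with 13.5%, 26.9% and 2.87% of the TPM of the gene on average. In library 1 of the second, 4.59 TPM was assigned with the exon and 1.245 TPM without it, of 13.4 TPM. The skipped form stood at 1.65, 0.620 and 1.57 TPM, in a gene with 162, 140 and 114 counts. In Cd27 and Tnfrsf18, the stretches of 180 and 203 bases were kept at 95.1 ± 1.38% and 91.2 ± 8.64% (SD, n = 3). The second quantification gave 91.9 ± 3.39% and 96.05 ± 0.355%. In libraries 1, 2 and 3 of the first, Tnfrsf18 had 82.7%, 90.9% and 100%, a range that overlapped with that of Tnfrsf9. These shares count the retained introns Cd27-204 and Tnfrsf18-206 as entries that keep the stretch.

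**Figure D4:**
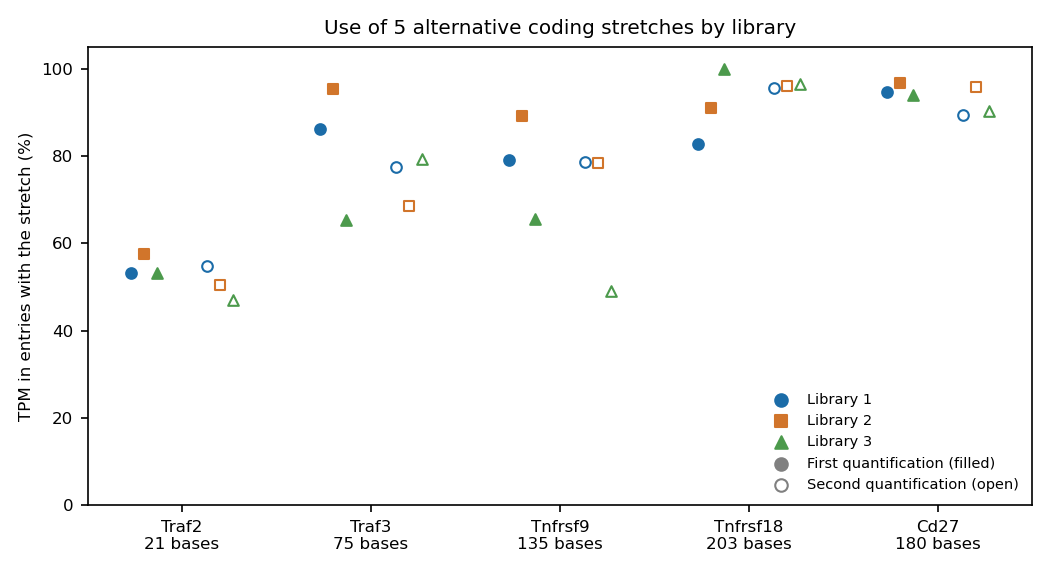
Percentage of the assignable TPM in entries that hold the alternative stretch, for 5 members. Each point is 1 library, filled for the first and open for the second quantification; Traf2 lies between 47.0% and 57.6%, and Cd27 at 89.4% or more.

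Promoters were looked up in RefSeq (GRCm38.p6), as the 250 bases before each annotated start, for 35 of the 47 members. The NF-kappaB consensus, searched on both strands, occurred in 4 of them (11.4%), namely Tnfrsf9, Tnfrsf8, Traf3 and Tnfrsf25, against 8.23% of 27025 genes. The ETS-family core CCGGAAG, likewise on both strands, occurred in 5 members (14.3%), namely Traf7, Tnfrsf1a, Traf4, Tnfrsf1b and Tnfrsf12a, against 7.83% of genes. The 5 members with CCGGAAG ranged from 8.53 to 61.1 TPM, and those with the NF-kappaB consensus from 0.253 to 17.0 TPM. A match describes the sequence only.

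The upstream region of the second RefSeq start of Tnfrsf9 is shown, since 4-1BB is a known target of NF-kappaB and the gene has 2 annotated starts. It covers chr4:150927749-150927998 on the plus strand, and the capitals mark 2 overlapping matches to the NF-kappaB consensus.
Tnfrsf9 promoter: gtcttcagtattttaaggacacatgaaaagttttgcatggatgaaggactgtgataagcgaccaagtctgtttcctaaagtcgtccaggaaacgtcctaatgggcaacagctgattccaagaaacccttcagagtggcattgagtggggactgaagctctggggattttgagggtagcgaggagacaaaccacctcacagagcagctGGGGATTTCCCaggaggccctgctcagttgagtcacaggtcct

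Transcript entries that begin within 100 bases of this start had 1.78, 3.35 and 1.32 TPM in libraries 1, 2 and 3. Entries at the other start, with no match upstream, had 1.65, 0.620 and 1.57 TPM. All of this lay in Tnfrsf9-204, the same entry that made up the skipped form above, so the 2 observations are not separate. Tnfrsf9-206, the leading entry of the first quantification at 4.49, 1.54 and 1.67 TPM, belongs to neither start. The second quantification gave 10.7, 2.41 and 0.738 TPM for this start and 1.24, 4.77 and 3.49 TPM for the other. Neither start was higher in every library by both quantifications, so the preferred start of Tnfrsf9 was not settled by these values.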

How the data were processed

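Total RNA of 3 libraries was analysed, with 1 table per gene and 2 tables per transcript for each. Transcriptome alignments to mm10 with GENCODE M21 underlie the gene table and 1 of the transcript tables, per the deposited README files. Their columns, per the file headers, are estimated counts, TPM, FPKM and posterior values. The other transcript table, here the second quantification, gives the authors' estimated counts and TPM from an index of that annotation. The sources used here name neither aligner nor quantifier nor strand setting; per the labels, the kit was directional. Levels are deposited TPM. A member was detected at 1 TPM or more in all 3 libraries.

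For the test of spread, estimated counts were rounded, filtered with filterByExpr and TMM-scaled. Residual quasi-likelihood dispersion of an intercept-only edgeR 4.0.16 fit was set against the abundance trend by an F test (R 4.3.3), adjusted over all genes at 0.05, and the procedure was tested on simulated data. Pairs used log2(TPM + 1) and an exact sign-flip permutation test. DESeq2 1.42.0 gave an alternative. Intervals and floors cover counting error only. Libraries were distinct, with a chi-square per degree of freedom of 4.20 to 5.25 between pairs of libraries. Members, lists and tests were chosen with earlier results of these data known. All members are accounted for; those with a mean of 10 TPM or more and all pairs have a value in every library, transcript entries are named for members with a mean of 5 TPM or more whose leading entry differs between quantifications or is not protein coding, and of other lists up to 3 highest and 2 lowest genes are named. The 5 alternative stretches and their entries, Cd79a, the listed genes of regulatory T cells and of cell state that are named, and the genes overlapping a member are exceptions, chosen after their values were seen.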

Additional observations from a re-analysis of the deposited data

How the results depend on the processing

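No member was called as varying between libraries under any of the 9 alternatives. With 0.565% of all tested genes called in the main fit, calls among 35 members would be rare anyway. The absence of calls therefore does not show that the members were steady. At an unadjusted p under 0.05 in edgeR stood 0 to 5.71% of the members tested, depending on the setting, against 4.73% to 6.36% of genes. The number of genes called in the whole table moved more, with 75 in edgeR as reported, 303 without a filter, 28 in the non-robust fit, 158 marked by DESeq2 and 35 to 85 with 1 library left out. Detected members numbered 28 to 33 over all units, thresholds and omitted libraries, against 31. The receptor was higher in 12 of 16 pairs with another pseudocount, unit or quantification and with each library left out. Over protein-coding entries only, an alternative chosen after seeing the data, it was higher in 11, since Tnfrsf10b minus Tnfsf10 became -0.67. The median share of protein-coding entries was 76.1% in the second quantification, against 70.0%, and the cause was not tested. Medians within single libraries of the first ran from 71.0% to 80.2%, a range that takes in the value of the second. Of 47 member levels, 35 moved by more than 1 SD in the second quantification, 34 of them upward. No paired analysis was possible because the 3 libraries form 1 group. Members with a mean under 1 TPM rested on at most 36 counts per library, and 12 members did not enter the test of spread.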

Other observations

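Of the 47 members, 19 lie in 8 clusters in which the next member is within 200 kb, and neighbours could differ widely in level. On chromosome 6, Cd27, Ltbr and Tnfrsf1a lie within 130 kb and averaged 98.2 ± 1.70, 0.590 ± 0.251 and 18.0 ± 0.555 TPM. Tnfrsf1b and Tnfrsf8 lie within 102 kb on chromosome 4 and averaged 10.4 ± 1.10 and 0.253 ± 0.0379 TPM. The OX40 and GITR genes, Tnfrsf4 and Tnfrsf18, are 15.1 kb from end to end and were both used, at 10.6 ± 0.140 and 18.9 ± 3.13 TPM, while their ligand genes Tnfsf4 and Tnfsf18, neighbours on chromosome 1, had at most 3 counts in any library. Chromosome 4 holds 9 members, of which 7 are receptors (SD, n = 3).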
